A study of Mus musculus with 48 samples.

Results

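The p53 target genes described here are a set of 9 symbols: Cdkn1a, Ccng1, Btg2, Gadd45a, Phlda3, Zmat3, Dpysl4, Mdm2 and Trp53 itself. On the Affymetrix mouse array MG-U74Av2, 9 of the 12488 probe sets name a single one of these symbols, and they cover 8 of the 9 genes, out of 8252 genes with such a probe set. Cdkn1a has 2 such probe sets, and Trp53 has none that names it alone, so its own transcript was not analysed here. The genes were selected on an earlier reading of these same arrays, using the differences between treated and vehicle arrays that are given below. Those differences are therefore a description of the members, with standard errors and with no test.

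The study exposed mouse embryos to teratogens that produce a similar limb defect. Pregnant mice, whose strain is not given in the sources used here, received an intraperitoneal injection on day 9.5 of gestation. It held either cadmium sulfate (4 mg/kg, in phosphate buffered saline, PBS) or acetazolamide, a carbonic anhydrase inhibitor (400 mg/kg, in vegetable oil). Right forelimb buds were taken at 3 h or 12 h and split with trypsin into ectoderm, the covering epithelium, and mesoderm, the core that forms skeleton and connective tissue. Control dams received PBS or oil alone, which gave 16 groups of 3 arrays, 48 in all, and 8 comparisons of an agent with its own vehicle. The labels state that tissue from several litters was pooled for each RNA, and elsewhere that the hybridised extracts were not pooled. They do not say that the 3 arrays of a group came from separate sets of dams. Every standard error therefore measures a spread between arrays, which may be technical. Each comes from a variance that the fit to all 48 arrays gives the probe set, scaled by a weight per comparison. A standard error is thus not the spread of the arrays of that comparison alone.

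The deposited values are ratios to vehicle and hold no expression level. In each comparison the first 2 vehicle arrays sum to 2 and vehicle array 3 equals 1 for every probe set, so on the log2 scale vehicle array 3 is 0 and the other pair lies on either side of it by construction. Levels could not be set side by side between genes, tissues or times, and the tissue labels could not be checked against the level of any marker. A value of 1 on the log2 scale is a doubling against vehicle. In bulk tissue, a change in the number of expressing cells and a change in RNA per cell cannot be told apart.

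The p53 protein is a transcription factor that is held low in unstressed cells by Mdm2, a ubiquitin ligase that marks it for degradation and is itself a p53 target. DNA damage and other stresses free p53 from Mdm2, and it then binds response elements made of a pair of half-sites and raises genes that stop the cell cycle, repair DNA, limit survival signals or start cell death. In mouse embryos p53 is widely present, and its activity after teratogen exposure has been linked to cell death in the limb bud.

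Promoter windows from RefSeq on build GRCm38.p6 show where such half-sites lie near the start of the members. The table used covers 250 bases before to 50 bases after each gene start and holds 8 windows for 7 of the 9 genes, with no entry for Zmat3 or Dpysl4. Windows were searched for the p53 half-site consensus, a motif of 10 bases that equals its own reverse complement, so that 1 scan covers both strands. At least 1 match lay in 5 of the 8 member windows (62.5%), those of Cdkn1a, Ccng1, Mdm2, Gadd45a and Trp53, against 8.36% of all 32851 windows. The sequences of 4 measured genes are shown because they let the array responses be read beside the sites, with 20 flanking bases and the half-sites in capitals. Each is printed 5′ to 3′ on the strand of its gene and lies upstream of the gene start, outside the transcribed region.
Cdkn1a (chr17:29090886-29090957, plus strand): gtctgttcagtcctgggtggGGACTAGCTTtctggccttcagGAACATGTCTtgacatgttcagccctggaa
Ccng1 (chr11:40755442-40755491, minus strand): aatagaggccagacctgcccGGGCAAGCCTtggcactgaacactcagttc
Mdm2 (chr10:117710915-117710964, minus strand): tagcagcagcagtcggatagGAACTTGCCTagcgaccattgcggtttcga
Gadd45a (chr6:67037418-67037467, minus strand): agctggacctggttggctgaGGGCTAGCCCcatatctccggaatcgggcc
The first Cdkn1a half-site begins 73 bases before that gene start, the Ccng1 one 185 bases, the Mdm2 one 186 bases and the Gadd45a one 40 bases before theirs. Among the member windows only this Cdkn1a window held a pair of half-sites within 13 bases of each other, here with 12 bases between them, and 24 of all windows (0.0731%) held such a pair. Only exact matches were marked and counted. The 10 bases directly after the second Cdkn1a match differ from the consensus only at their first base and so stay in lower case. The second Cdkn1a window, at another start further downstream (chr17:29093519-29093818), held no match. Btg2 and Phlda3 also held no match. This says only that these letters are not in those windows. A match is a description of the sequence and not a measured binding site.

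Cadmium at 12 h in the mesoderm gave the largest values of the set. The cell cycle inhibitor Cdkn1a, the cyclin G1 gene Ccng1 and the Akt repressor Phlda3 were the 3 probe sets with the highest log2 difference of all 12488, at 2.58, 1.94 and 1.53. Dpysl4 ranked 10th and Zmat3 11th. All 9 member probe sets had a difference above 0, with a median of 0.90 against 0.01 over all probe sets. Mdm2, the feedback regulator, was at 0.04.

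**Figure D1:**
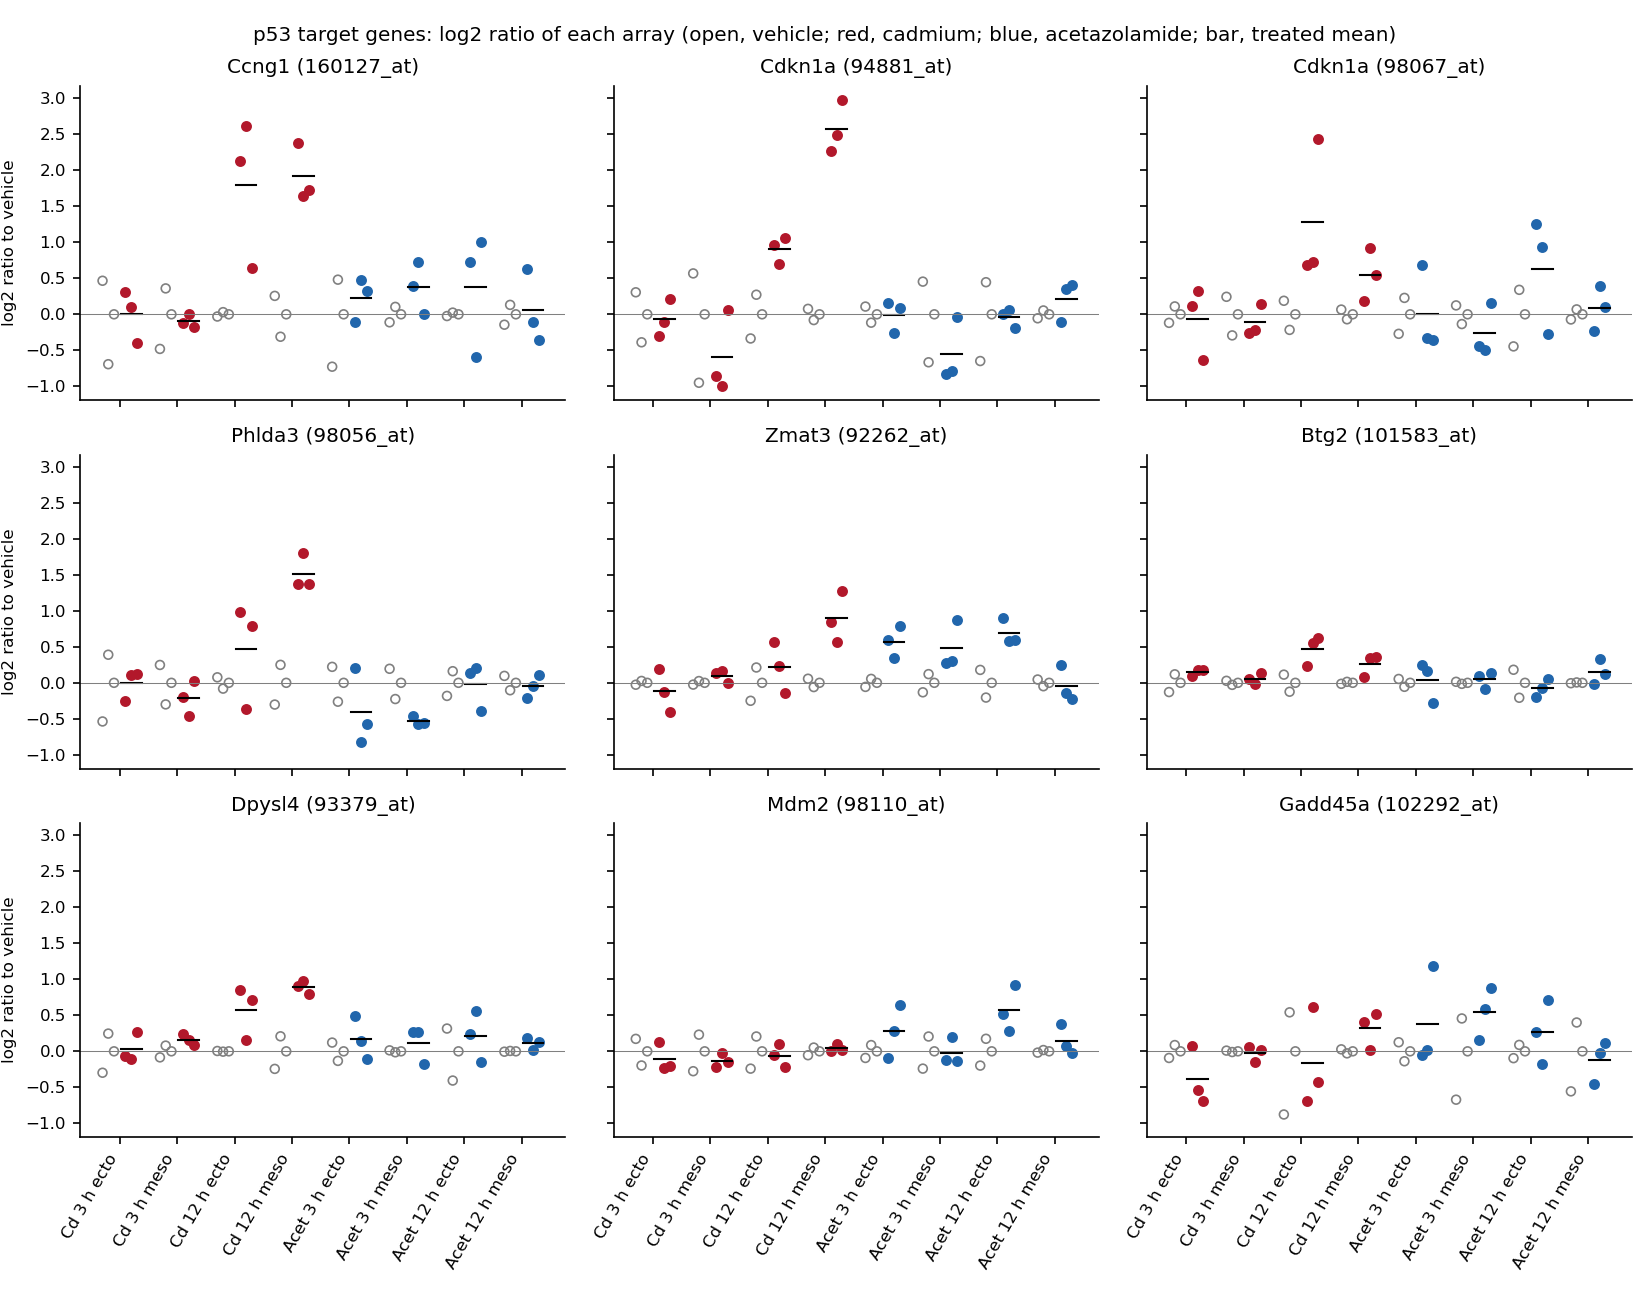
Log2 ratio to vehicle of each member probe set on every array, by comparison, with vehicle arrays and treated arrays as separate points. In cadmium 12 h mesoderm the treated arrays of Cdkn1a 94881_at (2.27 to 2.97), Ccng1 (1.64 to 2.38) and Phlda3 (1.38 to 1.80) sit far above their vehicle arrays.

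Among the growth arrest genes, Cdkn1a encodes p21, which blocks cyclin-dependent kinases. Its probe set 94881_at in cadmium 12 h mesoderm read 2.27, 2.49 and 2.97 on the treated arrays and 0.08, -0.08 and 0 on the PBS arrays. All treated arrays were far above all PBS arrays, and the difference was 2.58 ± 0.24 (SE from the fit to all arrays, n = 3 against 3), a 5.98-fold excess. Ccng1, a classical p53 target whose product recruits a phosphatase to Mdm2, read 2.38, 1.64 and 1.73 against 0.26, -0.31 and 0. The groups did not overlap, and the difference was 1.94 ± 0.27 (3.83-fold).

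Btg2, an antiproliferative cofactor of mRNA decay, read 0.07, 0.35 and 0.35 on the treated mesoderm arrays against -0.01, 0.01 and 0. The groups were apart, but by a small margin, with a difference of 0.26 ± 0.08 (1.20-fold). Gadd45a, a stress-induced gene of growth arrest and DNA repair, read 0.41, 0.02 and 0.52 against 0.03, -0.03 and 0. Its second treated array lay within the PBS arrays, and the difference was 0.32 ± 0.22.

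Among the genes that act on survival, Phlda3 encodes a lipid-binding protein that competes with Akt at the membrane. It read 1.38, 1.80 and 1.38 in cadmium 12 h mesoderm against -0.30, 0.25 and 0, a difference of 1.53 ± 0.20 (2.89-fold) with no overlap. Zmat3, an RNA-binding zinc finger protein, read 0.84, 0.57 and 1.27 against 0.06, -0.06 and 0, which gave 0.90 ± 0.12 (1.86-fold). Dpysl4, a member of the dihydropyrimidinase-like family that p53 is known to induce, read 0.90, 0.98 and 0.79 against -0.24, 0.21 and 0. Its treated arrays lay closest together of these genes, and the difference was 0.91 ± 0.13 (1.87-fold).

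The feedback gene Mdm2 read 0.01, 0.10 and 0.02 on the same treated arrays against -0.05, 0.05 and 0. The groups overlapped, with a difference of 0.04 ± 0.12 and a 95% interval from -0.21 to 0.29. The p53 transcript has no probe set of its own, but 2 probe sets name the near-identical pseudogene Trp53-ps and cannot be told from it. They gave 0.14 ± 0.15 and -0.07 ± 0.15 in cadmium 12 h mesoderm, and treated and vehicle arrays overlapped for both in all 8 comparisons.

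The threshold used for all probe sets was an adjusted p of 0.05 from limma's moderated test with Benjamini-Hochberg adjustment over all 12488. It was passed in cadmium 12 h mesoderm by 5 of the 9 members, all higher, where 1.58% of all probe sets passed in either direction and 0.785% passed as higher. All 3 treated arrays were above all 3 vehicle arrays for 7 of 9 members, against 9.32% of all probe sets. Nothing is read from either count, since this contrast chose the members.

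The values of cadmium 12 h ectoderm were lower and more scattered. Ccng1 had the highest log2 difference of all probe sets there, reading 2.12, 2.62 and 0.64 on the treated arrays against -0.03, 0.03 and 0. The third cadmium array was far below the other two but above every PBS array, and the difference was 1.80 ± 0.51 (3.47-fold). Cdkn1a 98067_at read 0.68, 0.73 and 2.43 against 0.19, -0.22 and 0, here with the third array highest, and the difference was 1.29 ± 0.41. Without array 3 of either group, Ccng1 stood at 2.37 and Cdkn1a 98067_at at 0.72.

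Cdkn1a 94881_at read 0.97, 0.70 and 1.06 in cadmium 12 h ectoderm against -0.34, 0.27 and 0, with no overlap and a difference of 0.93 ± 0.46. Btg2 read 0.24, 0.56 and 0.62 against 0.11, -0.12 and 0, a difference of 0.47 ± 0.16 that was larger than its mesoderm value. Dpysl4 read 0.85, 0.16 and 0.71 against 0 on all vehicle arrays after rounding, which gave 0.57 ± 0.24. These 3 probe sets were higher on every treated array than on any PBS array.

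Phlda3 in cadmium 12 h ectoderm read 0.98, -0.37 and 0.79 against 0.08, -0.08 and 0. Its second treated array lay below the vehicle arrays, and the difference was 0.47 ± 0.38, or 0.90 without that array. Zmat3 overlapped its vehicle at 0.23 ± 0.22, as did Gadd45a at -0.06 ± 0.42 and Mdm2 at -0.05 ± 0.23. The member median was 0.47 against 0.03 over all probe sets. None of the 9 members passed the threshold, where 0.0240% of all probe sets did and 524 had an unadjusted limma p under 0.05. For 5 of 9, Cdkn1a on both probe sets, Ccng1, Btg2 and Dpysl4, all treated arrays lay above all vehicle arrays, against 4.81% of all.

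The ratio of the 3′ to the 5′ control probe sets of Gapdh, a sign of RNA length, stood apart on 1 array of this comparison. On the log2 scale it was 1.80 on the second cadmium array of 12 h ectoderm, against -0.67 and 0.44 on the others, and the treated group was 0.49 above vehicle. In 12 h mesoderm the treated group was at -0.25. For actin the differences were 0.00 in ectoderm and -0.07 in mesoderm. The part of RNA length in the member values was not tested.

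The mesoderm and ectoderm responses to cadmium at 12 h are set side by side as a description, with intervals that are not adjusted for the number of probe sets. Over all 12488, 0 passed the threshold for this contrast of tissues. The mesoderm difference exceeded the ectoderm difference by 1.65 for Cdkn1a 94881_at (95% interval 0.58 to 2.72), by 1.06 for Phlda3 (0.19 to 1.93) and by 0.66 for Zmat3 (0.14 to 1.18). For Ccng1 the excess was 0.14, with an interval from -1.03 to 1.31, so a gap of more than a doubling either way lies within its error. For Dpysl4 it was 0.33 (-0.22 to 0.89), for Gadd45a 0.37 (-0.59 to 1.34) and for Mdm2 0.09 (-0.44 to 0.62). Btg2 and Cdkn1a 98067_at had larger values in ectoderm, at -0.22 (-0.58 to 0.15) and -0.74 (-1.69 to 0.22) on the same scale.

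**Figure D2:**
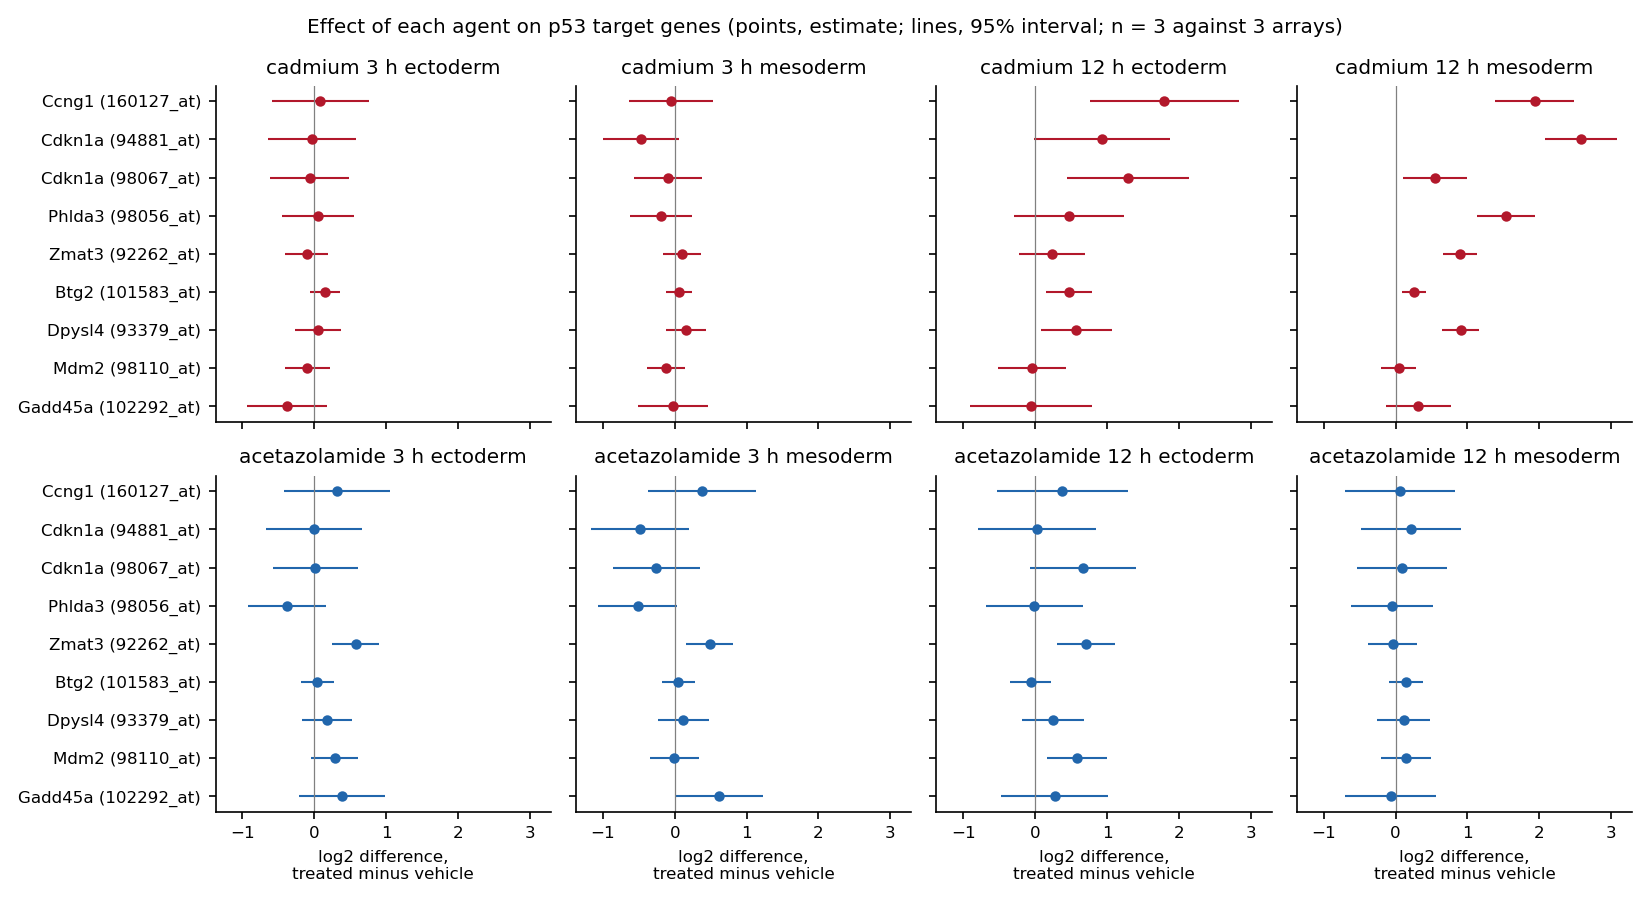
Log2 difference, treated minus vehicle, of each member probe set in the 8 comparisons, with 95% intervals from limma. Cadmium at 12 h in mesoderm holds the highest values, from 0.04 for Mdm2 to 2.58 for Cdkn1a 94881_at, while the 3 h cadmium values run from -0.47 to 0.16.

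At 3 h after cadmium the members lay near or slightly below their vehicle. The medians were -0.04 in ectoderm and -0.05 in mesoderm, and the values ran from -0.38 for Gadd45a to 0.15 for Btg2 in ectoderm and from -0.47 for Cdkn1a 94881_at to 0.16 for Dpysl4 in mesoderm. None of the 9 members passed the threshold in either tissue, where 0% of all probe sets did. By limma's unadjusted p, 421 probe sets in ectoderm and 393 in mesoderm were under 0.05.

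Cdkn1a 94881_at at 3 h in mesoderm read -0.86, -0.99 and 0.07 on the cadmium arrays, but its PBS arrays spread from -0.95 to 0.57, so the groups overlapped. Ccng1 read -0.12, 0.01 and -0.17 there, within the range of its PBS arrays. Dpysl4 was the single member whose treated arrays all lay above vehicle in mesoderm at 3 h, with 0.24, 0.15 and 0.09 against -0.08, 0.08 and 0. In ectoderm no member did so, and the same separation occurred for 5.30% of all probe sets in ectoderm and 5.55% in mesoderm.

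The rise of the cadmium difference from 3 h to 12 h in mesoderm was 3.05 for Cdkn1a 94881_at (95% interval 2.32 to 3.78), 1.99 for Ccng1 (1.19 to 2.79) and 1.73 for Phlda3 (1.13 to 2.32). It was 0.80 for Zmat3 (0.44 to 1.15) and 0.75 for Dpysl4 (0.37 to 1.13). Mdm2 stood at 0.16 (-0.20 to 0.53) and Btg2 at 0.20 (-0.05 to 0.45), while Gadd45a stood at 0.34 ± 0.32 (SE) and the other Cdkn1a probe set, 98067_at, at 0.65 ± 0.32 (SE). Over all probe sets 26 passed the threshold for this contrast of times in mesoderm and 3 in ectoderm. In ectoderm the gain was 1.71 for Ccng1 (0.48 to 2.95) and 1.35 for Cdkn1a 98067_at (0.34 to 2.36). With arrays 1 and 2 alone, that Cdkn1a 98067_at gain was 0.49. For Cdkn1a 94881_at it was 0.97 (-0.16 to 2.09), and the other members ran from 0.05 for Mdm2 to 0.53 for Dpysl4.

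The Cdkn1a probe sets gave different values for the same gene. The probe set 98067_at in cadmium 12 h mesoderm read 0.19, 0.92 and 0.54 against 0.07, -0.07 and 0, a difference of 0.55 ± 0.22 (1.47-fold) where 94881_at gave 5.98-fold. The 94881_at value was higher on 3 of 3 cadmium arrays, and the gap between the differences was 2.03. In ectoderm at 12 h after cadmium 94881_at was lower by 0.36, which rests on array 3 (1.06 against 2.43): array 1 ran the other way (0.97 against 0.68) and array 2 was nearly level (0.70 against 0.73). Without array 3, 94881_at stood at 0.87 and 98067_at at 0.72. After acetazolamide in 12 h ectoderm 94881_at was lower by 0.65, with 1 of 3 treated arrays the other way. Over the 24 treated arrays the log2 ratios of the probe sets had a Pearson r of 0.468, a description over arrays that share comparisons. A gene mean of both, 1.57 in cadmium 12 h mesoderm, hides this. The probe sequences were not used here, so which transcripts each probe set detects is unknown.

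**Figure D3:**
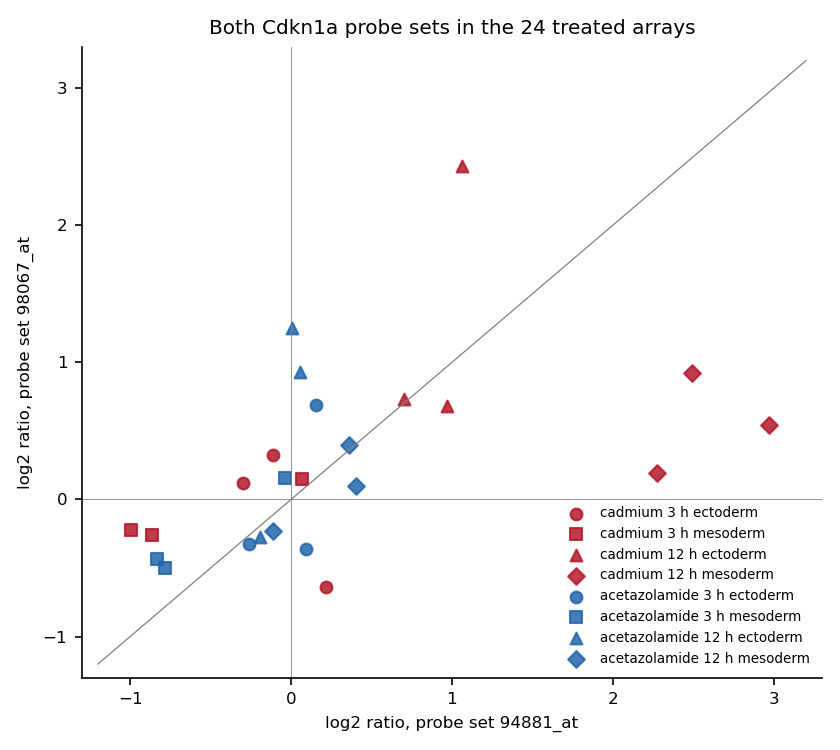
Log2 ratio to vehicle of Cdkn1a by probe set 94881_at (horizontal) and by 98067_at (vertical) on each of the 24 treated arrays, with a line at equal values. The 3 cadmium 12 h mesoderm arrays lie at 2.27 to 2.97 by 94881_at and at 0.19 to 0.92 by 98067_at.

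Acetazolamide did not give the cadmium pattern. Zmat3 was the member whose treated arrays most often stood above oil. It read 0.59, 0.34 and 0.79 in 3 h ectoderm against -0.06, 0.05 and 0, a difference of 0.57 ± 0.16. In 3 h mesoderm it read 0.27, 0.31 and 0.87 against -0.13, 0.12 and 0 (0.49 ± 0.16), and in 12 h ectoderm 0.90, 0.58 and 0.60 against 0.18, -0.20 and 0 (0.70 ± 0.20). The groups were apart in these 3 comparisons. In 12 h mesoderm its arrays read 0.24, -0.15 and -0.22 and overlapped oil, with a difference of -0.04 ± 0.17.

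Mdm2 was higher in acetazolamide 12 h ectoderm, reading 0.52, 0.28 and 0.93 against -0.20, 0.17 and 0, a difference of 0.58 ± 0.20 (1.50-fold). In the other acetazolamide comparisons it overlapped oil, at 0.28 in 3 h ectoderm, -0.01 in 3 h mesoderm and 0.14 in 12 h mesoderm. Phlda3 was lower on every treated array of 3 h mesoderm, at -0.47, -0.57 and -0.55 against 0.19, -0.23 and 0, a difference of -0.52 ± 0.27. Gadd45a read 0.16, 0.59 and 0.88 there, but oil array 2 at 0.46 lay among them, and its difference was 0.62 ± 0.30.

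Cdkn1a 98067_at in acetazolamide 12 h ectoderm read 1.25, 0.93 and -0.27 against -0.45, 0.34 and 0. The third array lay among the oil arrays, the difference was 0.67 ± 0.36, and 94881_at gave 0.02 ± 0.40. Ccng1 in the same tissue had 1 treated array below oil and also overlapped it, at 0.38 ± 0.44. In 12 h mesoderm the members ran from -0.07 to 0.22, and Dpysl4 alone had all treated arrays above oil, at 0.18, 0.02 and 0.13 against -0.01, 0.01 and 0.

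The member medians after acetazolamide were 0.18 in 3 h ectoderm, 0.05 in 3 h mesoderm, 0.27 in 12 h ectoderm and 0.09 in 12 h mesoderm. No member passed the threshold, where 0.0240% of all probe sets passed in 3 h ectoderm, 0.00801% in 3 h mesoderm and 0% in both 12 h comparisons. By limma's unadjusted p the counts under 0.05 were 816, 801, 923 and 87 in that order. All treated arrays stood above all oil arrays for 1, 1, 2 and 1 of the 9 members, against 4.92%, 8.57%, 7.86% and 3.21% of all probe sets. The Gapdh 3′ to 5′ log2 ratio was 0.41 to 0.59 and that of actin 0.23 to 0.52 above oil in the acetazolamide comparisons. Single arrays stood apart within these means. Gapdh was at 1.72 on treated array 2 of 12 h mesoderm, where the other treated arrays were at -0.19 and -0.05. Actin was at 1.55 and 1.10 on treated arrays 1 and 2 of 3 h mesoderm, and at 1.30 on oil array 1. The part of RNA length in the member values was not tested.

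The agents differed in dose, vehicle and chemistry, so their values stand side by side and not at a matched dose. In 12 h mesoderm cadmium exceeded acetazolamide by 2.36 for Cdkn1a 94881_at (95% interval 1.51 to 3.22), 1.88 for Ccng1 (0.93 to 2.82), 1.58 for Phlda3 (0.88 to 2.28), 0.94 for Zmat3 (0.52 to 1.35) and 0.80 for Dpysl4 (0.35 to 1.24). The other members there were Cdkn1a 98067_at at 0.46, Gadd45a at 0.39, Btg2 at 0.11 and Mdm2 at -0.10, with intervals that hold 0. In 12 h ectoderm the difference was 1.42 for Ccng1 (0.04 to 2.80), 0.54 for Btg2 (0.11 to 0.96) and -0.63 for Mdm2 (-1.26 to -0.0037). With intervals that hold 0, Cdkn1a stood at 0.91 and 0.62, Phlda3 at 0.48, Dpysl4 at 0.33, Gadd45a at -0.33 and Zmat3 at -0.47. Over all probe sets 2 passed the threshold for this contrast of agents in 12 h mesoderm and 0 in 12 h ectoderm. In 3 h ectoderm Zmat3 was at -0.68 (-1.12 to -0.24). Zmat3 thus had its highest cadmium value in 12 h mesoderm, the one comparison in which its acetazolamide value was near 0.

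Members that were high on the same arrays were identified by Pearson r over the 24 treated arrays, which share groups and comparisons and are given with no test. The members were chosen on differences from these same arrays. Cdkn1a 94881_at and Phlda3 were highest on the cadmium 12 h mesoderm arrays, so a high r with either partly restates that contrast. Cdkn1a 94881_at and Phlda3 had the highest r among pairs of members, 0.883. Phlda3 and Dpysl4 followed at 0.858, and Cdkn1a 94881_at and Dpysl4 at 0.721. Ccng1 stood somewhat apart, with 0.627 to Cdkn1a 94881_at, 0.512 to Dpysl4 and 0.487 to Phlda3. Zmat3 and Gadd45a had 0.569, and Mdm2 had 0.482 with Gadd45a and 0.421 with Zmat3.

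By the same measure the non-member gene most like Cdkn1a 94881_at was Ptprv, which encodes a receptor-type phosphatase known as a p53 target, at an r of 0.867. Next were Gcdh, a mitochondrial enzyme of lysine breakdown (0.864), Prrg2 (0.843), the endothelial receptor gene Tie1 on 99936_at (0.837) and Traf5, an adaptor of TNF receptors (0.820). Prrg2, a gene for a membrane protein with a Gla domain, was also among the 5 most alike probe sets for Phlda3 (0.887) and Dpysl4 (0.860). Its difference was 1.01 ± 0.12 in cadmium 12 h mesoderm and 0.61 ± 0.24 in ectoderm. Gpx3, a secreted glutathione peroxidase, was near Dpysl4 (0.877) and Phlda3 (0.823). The gene most like Ccng1 was Tmem43, at only 0.72, with 0.66 ± 0.12 in cadmium 12 h mesoderm and 0.84 ± 0.23 in ectoderm.

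Other p53 targets were followed through lists of genes with known roles. These lists, and the cell type lists below, were chosen with earlier results of these data known. Their counts and p-values are therefore not an independent test. Of the targets that act in arrest, repair and related steps, 20 of 31 genes had a probe set that names them alone, 30 probe sets in all. In cadmium 12 h mesoderm the median was 0.07 against 0.01 over all probe sets, and 0.785% of all probe sets passed the threshold as higher. Of the 30, 3 passed as higher and none as lower. Ptprv gave 2 of these, 92662_g_at at 0.62 ± 0.08 (limma adjusted p = 4.34e-05) and 92661_at at 0.35 ± 0.08 (adjusted p = 0.0264). On 92662_g_at the treated arrays read 0.55, 0.54 and 0.78 against 0.01, -0.01 and 0. The 92661_at values of 0.11, 0.21 and 0.72 were more uneven. The fit sets array 3 of both groups apart, so leaving out the third cadmium or the third PBS array takes both out of the difference. The 92661_at value was then 0.16 and its adjusted p 0.513. It was 0.0576 without the second cadmium array. The third Ptprv probe set, 92663_at, stood at 0.28 ± 0.10 and did not pass.

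Ercc5, an endonuclease of nucleotide excision repair, was the third on probe set 103483_at, with 0.42, 0.63 and 0.50 against 0.03, -0.03 and 0 and a difference of 0.52 ± 0.13 (limma adjusted p = 0.0305). That call was lost without the second PBS array (adjusted p = 0.0782), without the second cadmium array (0.16) and without the third array of either group (0.135). The other Ercc5 probe set, 161777_f_at, stood at 0.01 ± 0.11, so the probe sets disagree. Ddit4, an inhibitor of mTOR signalling, had the highest value of the list, 0.95 ± 0.32, and missed the threshold (limma adjusted p = 0.155). That rests on the PBS arrays: without PBS array 1 it was 1.28 and passed (adjusted p = 0.0382), and without PBS array 2 it was 0.59 (0.487). Sesn1, a stress-induced antioxidant protein, had the lowest at -0.20 ± 0.14. In cadmium 12 h ectoderm the list median was larger, 0.16 against 0.03 over all probe sets, with 26 of 30 above 0. The values ran from -0.89 to 0.83 and none passed the threshold. By limma's unadjusted p under 0.05, 4 were higher and 1 was lower there, where 524 of all 12488 were under it in either direction.

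Only part of the cell death targets could be followed, and genes such as Bax, Bbc3 and Pmaip1 had no probe set that names them alone. Of 15 genes, 6 had such a probe set, 7 probe sets in all, and none passed the threshold in any of the 8 comparisons. The values of these 7 in cadmium 12 h mesoderm ran from -0.04 ± 0.07 for the death receptor Fas to 0.36 ± 0.21 for the apoptosome gene Apaf1. Their median was 0.06, near the 0.07 of the arrest and repair list, against 0.01 over all probe sets. Above 0 were 6 of the 7, and 24 of 30 in the arrest and repair list. The median in cadmium 12 h ectoderm was -0.01. At limma's unadjusted p of 0.05, none passed in either, and 1 did in acetazolamide 3 h mesoderm.

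Regulators and relatives of p53 were at a median of -0.08 in cadmium 12 h mesoderm over 17 probe sets of 14 genes, and none passed the threshold. Chek1, a kinase of the DNA damage checkpoint, was lowest, with -0.33, -0.75 and -0.63 on the treated arrays against PBS arrays that all round to 0 (-0.57 ± 0.21, limma adjusted p = 0.191). Chek2, the other checkpoint kinase, was highest at 0.22 ± 0.15. By limma's unadjusted p under 0.05, 3 of the 17 were lower and none higher, where 1555 of all 12488 probe sets were under it in either direction. The largest median of this list was in acetazolamide 12 h ectoderm, 0.41 against -0.01 over all probe sets, with 13 of 17 above 0. None passed the threshold there. By limma's unadjusted p under 0.05, 5 were higher and 0 lower, where 923 of all 12488 were under it. That comparison was named after its values were seen.

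Cell cycle genes, among them cyclins and mitotic kinases that fall when p21 is active, had a median of -0.09 in cadmium 12 h mesoderm and -0.29 in ectoderm. None of their 33 probe sets, of 23 genes, passed the threshold in either tissue. In mesoderm 11 of 33 were above 0, and by unadjusted p under 0.05 7 were lower and 1 was higher, against the same 1555 of 12488 over all. In ectoderm 5 of 33 were above 0, and 4 were lower by unadjusted p, against 524 of 12488 in either direction. The mitotic cyclin gene Ccnb2 was highest in mesoderm, at 0.29 ± 0.14, with 0.14, 0.58 and 0.12 on the treated arrays against -0.23, 0.20 and 0. The mitotic checkpoint kinase Bub1 was lowest in mesoderm, at -0.60 ± 0.26, with -0.31, -0.59 and -0.91 on the treated arrays of 97095_at, while its other probe sets stood at 0.07 and 0.01.

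**Figure D4:**
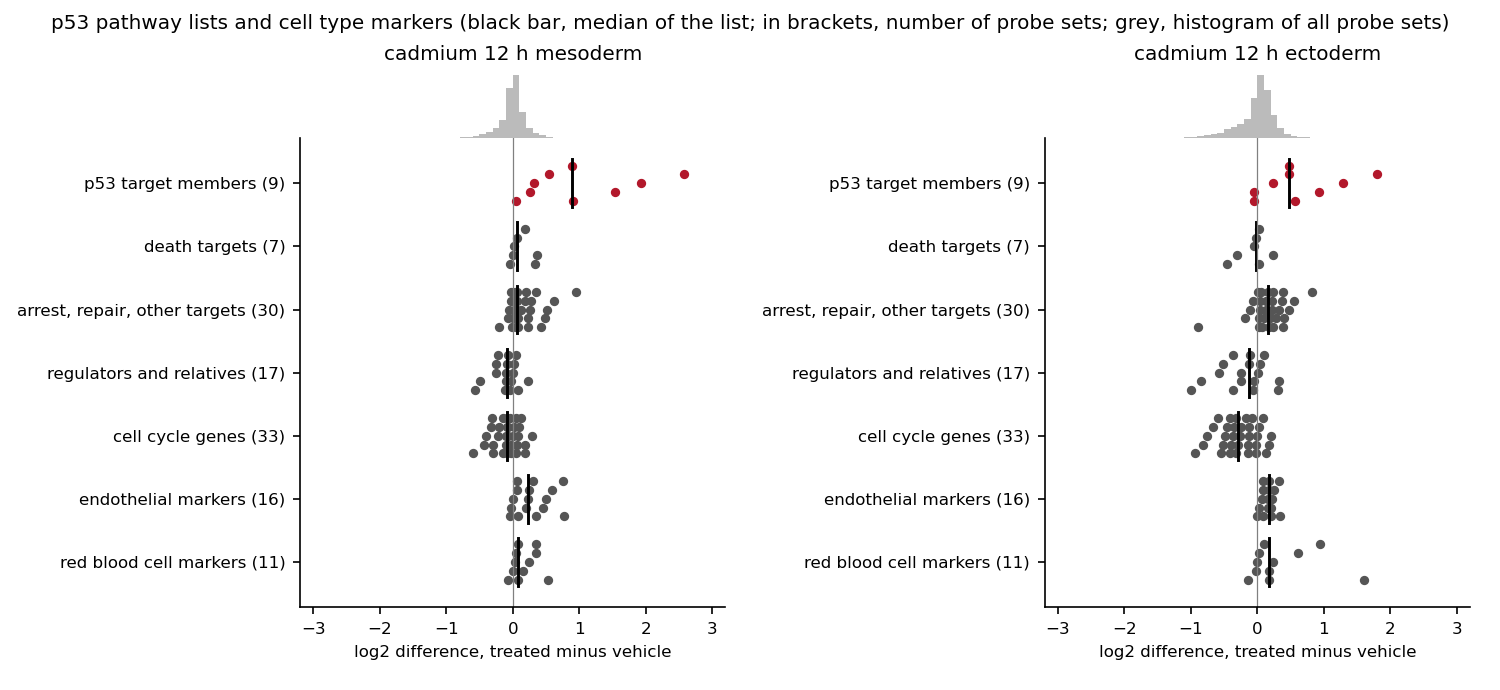
Log2 difference of each probe set, treated minus vehicle, for the members, 4 other p53 pathway lists and 2 cell type marker lists in cadmium 12 h mesoderm and ectoderm, with a black bar at the list median and a grey histogram of all 12488 probe sets. The member medians are 0.90 and 0.47, and the medians of the other lists lie between -0.29 and 0.24.

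Some markers of other cell types were also higher in cadmium 12 h mesoderm. Endothelial markers had a median of 0.24 over 16 probe sets of 10 genes, 14 of them above 0. Their mean log2 ratio was 0.16 to 0.46 on the treated arrays and -0.11 to 0.08 on the PBS arrays. The transcription factor gene Sox18 (0.77 ± 0.20, limma adjusted p = 0.0435) and the receptor gene Tie1 on 161184_f_at (0.76 ± 0.18, adjusted p = 0.0234) passed the threshold as higher, and none passed as lower. Over all probe sets 0.785% passed as higher. The other Sox18 probe set stood at 0.25 ± 0.24 and the other Tie1 probe set at 0.50 ± 0.15. Neither call held when PBS array 1, cadmium array 2, or the third array of cadmium or of PBS was left out. Adjusted p was up to 0.209 for Sox18 and 0.201 for Tie1. Leaving out the third array of either group takes both out of the difference, so these are the same change. Without PBS array 1 the Tie1 value was 0.48. Of 11 red blood cell probe sets, Alas2 passed as higher (0.53 ± 0.12, adjusted p = 0.0226), with a list median of 0.08. That call was lost without PBS array 1 (adjusted p = 0.054) and without array 3 of either group, when the value was 0.31 (0.422). The metal-binding metallothionein genes Mt2 (-2.86 ± 0.21, adjusted p = 1.22e-09) and Mt1 (-0.76 ± 0.14, adjusted p = 0.0028) passed as lower. The markers of ectoderm had a median of 0.10 and those of limb mesoderm 0.00, with none past the threshold. In cadmium 12 h ectoderm the endothelial median was 0.17, with 15 of 16 above 0 and none past the threshold. The red blood cell median there was 0.18, and the globin gene Hbb-y stood at 1.60 ± 0.72 on 97180_f_at and 0.94 ± 0.46 on 103535_at, with treated and PBS arrays overlapping. The limb mesoderm marker Twist1 was at 0.88 ± 0.40 in ectoderm with all treated arrays above PBS, and the median of its list was 0.04. None of these passed the threshold, and they were named after their values were seen. The part of these cells in the member values was not tested.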

How the data were processed

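RNA of mouse forelimb bud ectoderm and mesoderm was hybridised to 48 one-colour MG-U74Av2 arrays. The deposited values, made by the authors, are a linear ratio to vehicle for each of 12488 probe sets. The sums of the vehicle arrays (2 for arrays 1 and 2, largest deviation 3e-07) show how vehicle values were scaled. That treated arrays 1 and 2 share one denominator and array 3 another is inferred from that pattern. The summarisation and normalization are not given in the sources used here. Without signal levels no filter or offset was applied, and precision is limited by how many arrays there are.

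Ratios were taken to log2. A linear model (limma 3.58.1, R 4.3.3) was fitted to all probe sets and 48 arrays, with the denominator as a term, 8 precision weights (1 per comparison), 24 residual degrees of freedom, empirical Bayes and Benjamini-Hochberg adjustment per comparison at 0.05. The fit was tested on simulated data. Array medians lay between -0.12 and 0.10 and residual SDs between 0.12 and 0.22. Probe sets were named through the platform annotation: 10855 name 1 gene, 396 several and 1237 none, and only those with 1 gene were used by name.

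The members and gene lists were chosen with earlier results of these data known. Text names all members, list genes past the threshold, the highest and lowest of each p53 pathway and cell cycle list in cadmium 12 h mesoderm, and from the 5 most alike probe sets of 4 members. Alternatives were no weights, no denominator term, array number as a block, only the 6 arrays of a comparison, arrays 1 and 2 alone, gene means, median centring, robust empirical Bayes and leaving out each array.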

Additional observations from a re-analysis of the deposited data

Results flagged for a closer look

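The difference of Ptprv 92662_g_at after cadmium in mesoderm was larger at 12 h than at 3 h by 0.74 on the log2 scale (limma's test of the difference between the times, adjusted p = 0.00297). The 3 h value was -0.11 ± 0.08 with overlapping arrays, and the 12 h value was 0.62 ± 0.08 with all 3 cadmium arrays above all 3 PBS arrays. This was the only result past the threshold when the p53 pathway and cell cycle lists were searched over the contrasts of times and of tissues. The adjustment was made within each contrast, and the lists were chosen with earlier results known. Over all 12488 probe sets, 26 passed this contrast.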

How the results depend on the processing

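Of 1008 member differences recomputed under the alternatives, 985 moved by less than the SD of the 3 treated arrays. The other 23 moved by more, and none that was called changed sign. Differences between comparisons were held to another limit, their SE times the square root of 3. Of 2052 such differences, 2044 moved by less than that limit and 8 by more. Many of these values could not move. In this balanced design the weights, the denominator term, the array number block, the 6 arrays alone and robust empirical Bayes leave each estimate as it is. Gene means leave a gene with a single probe set as it is. These tallies are therefore no measure of how stable the estimates are. Counts past the threshold moved more. In cadmium 12 h mesoderm 5 members, 3 other p53 pathway probe sets and 197 of all probe sets passed. The member count was 5 or 6 with any 1 array left out. Without weights, the other pathway count was 1 and all probe sets 23; in ectoderm, 3 members and 4 others passed in place of none. The replicate block gave 9 others and 468 of all. Only the 6 arrays of the comparison gave 1 member, 0 others and 1 of all, with few residual degrees of freedom. Arrays 1 and 2 alone gave 1 other and 33 of all. Leaving out 1 array gave 67 to 429 of all and 1 to 8 others in 12 h mesoderm (429 and 8 without cadmium array 1; 97 and 1 when the second cadmium array was dropped; 67 and 1 when array 3 of cadmium or of PBS was; 5 others without PBS array 1), 0 to 2 members and 0 to 4 others in cadmium 12 h ectoderm (highest without PBS array 1), 0 to 1 others in acetazolamide 3 h ectoderm and mesoderm, and 0 to 1 members and 0 to 8 others in acetazolamide 12 h ectoderm (highest without oil array 2). The count over all probe sets was recomputed only for cadmium 12 h mesoderm. The counts of the other comparisons under these alternatives thus have no share of all beside them, and nothing is read from them. Where not given by fewer arrays, the cause was not tested. Adjusted p ranged over the alternatives from 0.0171 to 0.745 for Ercc5, 0.00115 to 0.626 for Ptprv 92661_at, 2.32e-06 to 0.139 for Ptprv 92662_g_at, 0.0382 to 0.936 for Ddit4, 0.00756 to 0.692 for Sox18, 0.000477 to 0.406 for Tie1 161184_f_at and 0.00446 to 0.437 for Alas2. The filter on low values and the offset were not run, as the values hold no level. The labels do not say that array numbers pair samples. The correlation of same-numbered treated and vehicle deviations ran from -0.23 to 0.65 over the 8 comparisons and passed 0.1 in 3, the highest in cadmium 12 h mesoderm, so the numbers were not taken as pairs. With 3 arrays a group, changes smaller than the half-width of the intervals cannot be seen.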
